A study of Mus musculus with 3 samples.

Results

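The heat shock chaperones described here are 9 genes taken by symbol, out of the 28692 genes in the matrices: Hspa1a, Hspa1b, Hspa8, Dnajb1, Hsph1, Hsp90aa1, Hspb1, Hspd1 and Hspe1. The rule that lists them uses no measured value, though the members were chosen with earlier results of these data known. All 9 had at least 50 UMIs in the study, and 8 of them could be compared with saline in every cell class below. The ninth, Hspb1, could be compared in endothelial-like and ASPC-like cells. Between CL and cold, 6 members could be compared in NK cell-like cells.

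Stromal vascular cells, the cells of fat that are not mature adipocytes, were taken from the inguinal fat of C57BL/6 mice and profiled with 10x Chromium 3' v3 libraries. One library came from mice treated with saline, another from mice kept at 4 C for 3 days, and another from mice given CL 316,243, a β3-adrenergic agonist, at 1 mg/kg into the peritoneum for 3 days (called CL below). All groups share the strain and the tissue. The age, the sex and the number of mice per library are not given in the sources used here, and each treatment has 1 library, so no test across animals was possible.

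Chaperones bind unfolded or partly folded proteins and keep them from clumping. Heat, oxidants and other stresses that unfold proteins free the transcription factor HSF1, which binds heat shock elements in promoters and raises the RNA of the inducible chaperones within minutes to hours. HSP70 proteins hold client proteins in cycles of ATP hydrolysis, J-domain proteins and nucleotide exchange factors drive that cycle, HSP90 finishes signalling proteins, small heat shock proteins hold clients without ATP, and the HSP60 and HSP10 pair folds proteins inside mitochondria. Enzymatic digestion of tissue at body temperature is also known to raise stress genes in single-cell preparations.

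Hspa1a and Hspa1b encode the inducible HSP70 proteins. Both are genes of 1 exon on the minus strand of chromosome 17 in GENCODE M21 (GRCm38): Hspa1a (ENSMUSG00000091971) lies at chr17:34969190-34972156 and Hspa1b (ENSMUSG00000090877) at chr17:34956436-34959238, with 9951 bases between them. The 250 bases before each start, from RefSeq (GRCm38.p6), are shown since their likeness bears on how far the pair can be told apart; capitals mark a heat shock element of the form GAANNTTC.
Hspa1a, chr17:34972157-34972406, minus strand: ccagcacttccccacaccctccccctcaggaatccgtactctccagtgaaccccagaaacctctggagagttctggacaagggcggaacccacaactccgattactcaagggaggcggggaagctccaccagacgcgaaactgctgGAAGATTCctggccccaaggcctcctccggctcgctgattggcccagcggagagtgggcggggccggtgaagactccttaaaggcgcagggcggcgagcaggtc
Hspa1b, chr17:34959239-34959488, minus strand: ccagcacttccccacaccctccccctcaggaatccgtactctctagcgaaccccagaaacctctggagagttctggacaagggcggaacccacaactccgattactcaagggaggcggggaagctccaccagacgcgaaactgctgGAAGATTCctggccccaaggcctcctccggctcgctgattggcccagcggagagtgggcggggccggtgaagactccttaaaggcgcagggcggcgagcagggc
Counted from 1 at the first base shown, the Hspa1a base, its position and the Hspa1b base differ at C44T, T47C and T249G. The element begins 104 bases before the start in both genes. The transcribed parts of such copies are also much alike, and how the authors' counting treated reads that fit both genes is not given, so values are given for each gene and for their sum.

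Promoter windows of 300 bases, from 250 before to 50 after a start, were found for 7 of the 9 members, and 6 of these held a 2-unit element (GAANNTTC or TTCNNGAA, each its own reverse complement, overlaps counted). Among 32851 mouse promoter windows, 15.1% held either form and 0.60% held a 3-unit form, in which a further GAA or TTC follows in register. Members with the 3-unit form were Hsph1, Hspd1 and Hspe1. The elements of Hspb1, Hspe1 and Hsph1 are shown because they differ in number and spacing from the single element of the HSP70 pair.
Hspb1, chr5:135887789-135887848, plus strand: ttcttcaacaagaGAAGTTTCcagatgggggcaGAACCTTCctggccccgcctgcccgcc
Hspe1, chr1:55088038-55088097, plus strand: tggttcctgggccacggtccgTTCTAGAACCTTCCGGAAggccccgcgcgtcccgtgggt
Hsph1, chr5:149636287-149636310, minus strand: atgctgcagaTTCTGGAAAGTTCt
Capitals again mark bases inside an element. The Hspb1 stretch holds 2 separate elements, that of Hspe1 holds 3 overlapping ones, and that of Hsph1 holds 2 overlapping ones just after the start. A further element of Hsph1, not shown, begins 33 bases before this start. The windows of Hspe1 and of 1 start of Hspd1 overlap by 285 bases, so both genes have the same element. None of the letters searched was found in the windows of Dnajb1.

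After filters 6185 saline, 3858 cold and 6641 CL cells remained, with a median of 3210, 3623 and 3837 UMIs per cell and a median of 5.69%, 6.49% and 4.10% mitochondrial UMIs. Before filters, between 20 and 25 barcodes of each library also occurred in another, and 20, 14 and 20 of the kept cells had such a barcode. Clustering without the 9 members gave 34 clusters, and 10 classes named from markers had at least 50 cells in every library. They are called B cell-like, ASPC-like (adipose stromal and progenitor cells), macrophage-like, T cell-like, endothelial-like, NK cell-like and, among dendritic cells (DC), cDC1-like, cDC2-like, migratory DC-like and plasmacytoid DC-like. Monocyte-like cells numbered 355, 22 and 2528 and were not compared.

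Over all cells, Hspa1a and Hspa1b together stood at 922 CPM (UMIs per 1000000) in the saline library, 317 in the cold library and 324 in the CL library. The saline library was the high one, and the other two differed from each other by 1.02-fold. The makeup of the libraries differed (B cell-like cells were 26.1%, 35.9% and 3.52% of cells), so the comparisons below are made within classes. In saline the pair was highest in plasmacytoid DC-like cells, the interferon-producing dendritic cells, at 3961 CPM, followed by migratory DC-like cells at 3108 and cDC1-like cells at 2794. It was lowest in ASPC-like cells at 150 CPM, 26.5-fold under the top class.

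**Figure D1:**
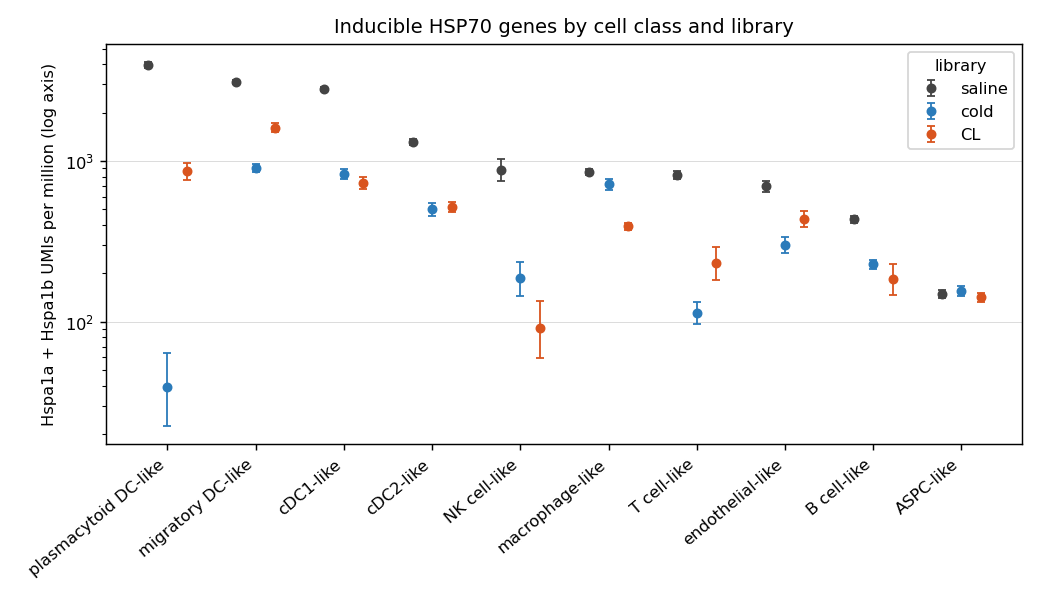
Summed UMIs of Hspa1a and Hspa1b per 1000000 UMIs (log axis) in 10 cell classes, with 1 point per library and exact Poisson 95% intervals (counting error only). Saline is the highest point in 9 classes, plasmacytoid DC-like cells lie at 39.2 in the cold library, and the 3 points of ASPC-like cells lie together between 142 and 156.

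Plasmacytoid DC-like cells showed the widest span. The pair stood at 3961 CPM (95% interval 3804 to 4122, 152 cells) in saline, 39.2 CPM (22.4 to 63.7, 80 cells) in cold and 864 CPM (767 to 970, 96 cells) in CL. The cold value rests on 16 UMIs, the saline value on 2399. The intervals of the 3 libraries do not overlap, and both genes gave the same picture: Hspa1a stood at 1998, 19.6 and 462 CPM and Hspa1b at 1963, 19.6 and 402 CPM. The log2 ratio of the pair was -6.66 (-7.47 to -5.96) in cold over saline and -2.20 (-2.38 to -2.02) in CL over saline.

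All 8 comparable members were called lower in the cold plasmacytoid DC-like cells, where 6.48% of all genes tested were called lower. In CL, 6 of 8 were called lower, against 5.94% of genes. The median log2 ratio of the 9 members was -2.51 in cold, beside 0.16 for all genes tested, and -1.44 in CL, beside 0.12. Hspb1, with under 50 UMIs, counts in the member medians. Hsp90aa1, the inducible cytosolic HSP90, stood at 4301 CPM in saline, 753 in cold and 1477 in CL. It took the highest level of any class in saline, over the 1403 CPM of cDC1-like cells.

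Other measures of these cells moved in the same direction. Their 15 immediate early genes, which are switched on within minutes of a stimulus, summed to 12540 CPM in saline, 4419 in cold and 4531 in CL. Jun, an AP-1 transcription factor, stood at 3617 CPM in saline, 110 in cold and 465 in CL. Haemoglobin and other erythroid markers summed to 2148, 1147 and 574 CPM. By contrast the 5 plasmacytoid DC markers summed to 10957, 10369 and 9050 CPM, and the median depth was 3980, 5110 and 3462 UMIs per cell. The part of these in the chaperone levels was not tested.

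Migratory DC-like cells, the mature dendritic cells on their way to lymph nodes, held the pair at 3108 CPM (3028 to 3190) in saline, 905 (854 to 958) in cold and 1616 (1509 to 1729) in CL. Their order was saline, CL, cold, with no overlap of intervals, as in plasmacytoid DC-like cells. The log2 ratios to saline were -1.78 (-1.87 to -1.69) in cold and -0.94 (-1.05 to -0.84) in CL. In cold, 6 of 8 members were called lower, against 3.22% of all genes tested, and in CL 3 of 8, against 3.01%. The 3 called in CL were Hspa1a, Hspa1b and Hsph1.

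In cDC1-like cells, which present antigen to CD8 T cells, the pair stood at 2794 CPM (2709 to 2881) in saline, 830 (770 to 893) in cold and 730 (666 to 799) in CL. Here the cold and CL intervals overlapped, and both lay under saline, by log2 ratios of -1.75 and -1.94. In cold, 6 of 8 members were called lower, where 3.79% of genes were, and in CL 5 of 8, where 4.83% were. In the saline, cold and CL cells of the class erythroid markers summed to 2791, 574 and 5981 CPM and monocyte markers to 524, 605 and 1370 CPM. Their part in the result was not tested. In cDC2-like cells, which present antigen to CD4 T cells, the pair stood at 1321 CPM in saline, 500 in cold and 519 in CL. The log2 ratios of -1.40 and -1.35 were alike, and 3 of 8 members were called lower in each comparison, against 5.45% of genes in cold and 8.46% in CL. Those 3 were Hspa1a, Hspa1b and Hsph1 in both. Monocyte markers summed to 982, 1042 and 2567 CPM in these cells, and their part in the result was not tested.

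In T cell-like cells the pair stood at 824 CPM (776 to 873) in saline, 114 (97.4 to 132) in cold and 232 (182 to 291) in CL, with no overlap of intervals. The log2 ratio was -2.85 (-3.10 to -2.62) in cold and -1.83 (-2.19 to -1.49) in CL. Only the pair was called lower in CL (2 of 8 members, against 4.57% of genes), while in cold Dnajb1 and Hsph1 were called too (4 of 8, against 5.63%). In the 40 to 76 T cell-like cells per library with at most 5% mitochondrial UMIs the CL ratio was -0.67, and without cells holding a UMI of the cycling genes Mki67 or Top2a it was -1.13. Erythroid markers summed to 3356, 1146 and 10535 CPM in the saline, cold and CL cells of this class, and their part in the result was not tested.

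NK cell-like cells, of which there were 66, 95 and 78, held the pair at 885 CPM (756 to 1029) in saline, 187 (145 to 237) in cold and 91.3 (59.7 to 134) in CL. The CL value was the lowest, resting on 26 UMIs. The log2 ratios were -2.25 (-2.67 to -1.83) in cold and -3.28 (-3.93 to -2.67) in CL. In each comparison 4 of 8 members were called lower, where 9.39% of genes were in cold and 10.9% in CL. With at most 5% mitochondrial UMIs, which left 21 saline and 22 cold cells, the cold ratio was -0.21.

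In B cell-like cells, the antibody-producing lineage, the pair stood at 433 CPM in saline, 229 in cold and 185 in CL, and the cold and CL intervals overlapped (214 to 244 and 147 to 229). The log2 ratios were -0.92 and -1.23. In cold 2 of 8 members were called lower (Hspa1b and Hsph1), against 7.59% of genes, and in CL 2 of 8 (Hspa1a and Hspa1b), against 3.47%. The UMIs sat in few cells: the top 5% of saline B cell-like cells held 86.8% of their Hspa1a UMIs. In the 21 saline and 25 cold cells with at most 5% mitochondrial UMIs the cold ratio was -2.81.

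Endothelial-like cells, the lining of blood vessels, held the pair at 696 CPM (646 to 749) in saline, 301 (269 to 337) in cold and 436 (387 to 490) in CL. All 3 intervals lay apart, with cold lowest. In cold 6 of 9 members were called lower, where 10.5% of all genes were, and in CL 5 of 9, where 12.2% were. Lymphatic endothelial markers summed to 752, 182 and 116 CPM over the class. One of its clusters, with the lymphatic marker Prox1 among its 10 leading genes, held 115 saline, 43 cold and 32 CL cells, and there the pair stood at 661, 360 and 254 CPM. Within the largest cluster (185, 181 and 206 cells) the pair stood at 775, 160 and 499 CPM, and the cold ratio there was -2.28 in place of -1.21. Saline was thus highest in both of these clusters. Another cluster of the class, with 34, 27 and 24 cells, stood at 572 CPM in saline. It had too few cold and CL cells for a level, so the order of its libraries is not given. Over the class, in cells with at most 5% mitochondrial UMIs, the CL ratio was -0.06 in place of -0.67. Immediate early genes moved alongside, at 16698, 9137 and 7661 CPM in sum, and their part in the chaperone levels was not tested.

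Macrophage-like cells were a case where cold was close to saline. The pair stood at 856 CPM (817 to 895) in saline, 719 (664 to 776) in cold and 392 (372 to 412) in CL. Only the CL library lay well under the others, at a log2 ratio of -1.13 (-1.23 to -1.03), with -0.25 (-0.38 to -0.12) in cold. In cold 1 of 8 members was called lower (Hsph1), against 4.33% of genes, and in CL 2 of 8 (Hspa1a and Hspa1b), against 13.7%. The cells were not the same in the libraries: cluster 5 held most of the class in saline and cold, and cluster 6 in CL. Within cluster 5 the pair stood at 836 CPM in saline, 765 in cold and 599 in CL, and the CL ratio was -0.48. Within cluster 6 it stood at 370 CPM in 51 saline cells and at 365 in 822 CL cells, so the 2 were close there. That cluster had 0 cold cells. Cluster 27, with 35 saline, 27 cold and 3 CL cells, stood at 1477 CPM in saline. It had too few cells in the other libraries for a level.

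ASPC-like cells, the fibroblast-like precursors of fat cells, had the pair at 150 CPM (141 to 158) in saline, 156 (144 to 168) in cold and 142 (133 to 151) in CL. The 3 intervals overlap. The log2 ratio was 0.06 (-0.08 to 0.19) in cold and -0.08 (-0.20 to 0.04) in CL, and with doublets kept it was -0.26 and -0.42. In cold 2 of 9 members were called lower (Dnajb1 and Hsph1), against 3.91% of genes. In CL no member was called lower, where 6.09% of genes were, and 1 of 9 was called higher (Hspe1), where 11.7% of genes were.

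Set side by side, the CL and cold libraries differed most in plasmacytoid DC-like cells, where the pair was higher in CL by a log2 ratio of 4.46 (3.74 to 5.29). It was also higher in CL in T cell-like cells, by 1.03 (0.61 to 1.43), and in migratory DC-like cells, by 0.84 (0.71 to 0.97). In endothelial-like cells it was higher by 0.53, which ran from 0.48 to 1.64 over the alternatives. It was lower in CL in NK cell-like cells, at -1.03 (-1.74 to -0.36), and in macrophage-like cells, at -0.87 (-1.01 to -0.74). In cDC2-like cells it was 0.05 (-0.11 to 0.22), in ASPC-like cells -0.13, in cDC1-like cells -0.18 and in B cell-like cells -0.31. Over the alternatives, which are other filters, clusters and scalings, this ratio ran from 0.26 to 2.73 in T cell-like cells, from -2.46 to -0.46 in NK cell-like cells and from -1.03 to -0.35 in macrophage-like cells. The outer values came with at least 1000 genes (0.26) and at most 5% mitochondrial UMIs (2.73 and -2.46), with means over cells (-0.46), and with thinning (-1.03) and the largest cluster alone (-0.35). The 2 comparisons with saline share the saline library, so a high saline level enters both.

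**Figure D2:**
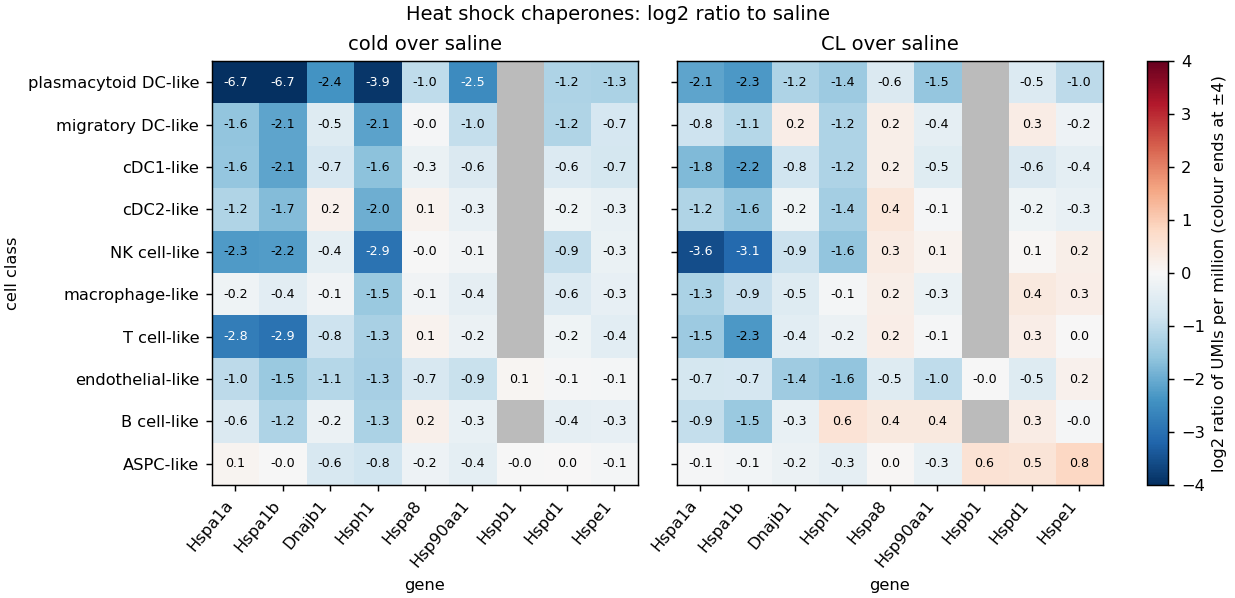
Log2 ratio of CPM for the 9 heat shock chaperones (columns) in 10 cell classes (rows), cold over saline on the left and CL over saline on the right; grey marks genes with under 50 UMIs in the 2 libraries together. Blue, for lower than saline, fills the Hspa1a, Hspa1b and Hsph1 columns in most classes, with the Hspa1a ratio of -6.67 in cold plasmacytoid DC-like cells past the colour range, while Hspa8 is pale except in plasmacytoid DC-like and endothelial-like cells.

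The share of cells with a UMI followed the sums in the dendritic classes. Each cell was thinned to 1500 UMIs for this, and shallower cells were left out (2, 2 and 4 of the plasmacytoid DC-like cells). Hspa1b was found in 66% (exact binomial 95% interval 57.8 to 73.5) of 150 saline plasmacytoid DC-like cells, in 0 of 78 cold cells (interval up to 4.62%), and in 22.8% (14.7 to 32.8) of 92 CL cells. These shares limit cells with a UMI at that depth, not cells that express the gene, and before thinning they were 75.0%, 5% and 27.1%. The high saline level was spread over many cells, since the top 5% of them held 19.8% of the Hspa1b UMIs, against 54.1% in CL. In cold all Hspa1b UMIs were in the top 4 cells.

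Hspa1a was found in 70.0% of thinned saline migratory DC-like cells, 31.7% of cold and 50.4% of CL cells. In cDC1-like cells the shares were 57.8%, 24.7% and 20.4%. Both classes thus had the UMIs in more cells in saline, not only more per cell. In ASPC-like cells the shares were 10.4%, 11.1% and 9.74%, with intervals that overlap, and in B cell-like cells 7.55%, 7.09% and 8.89%. No class is known to lack these genes, so a background share from free RNA could not be set beside them.

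**Figure D3:**
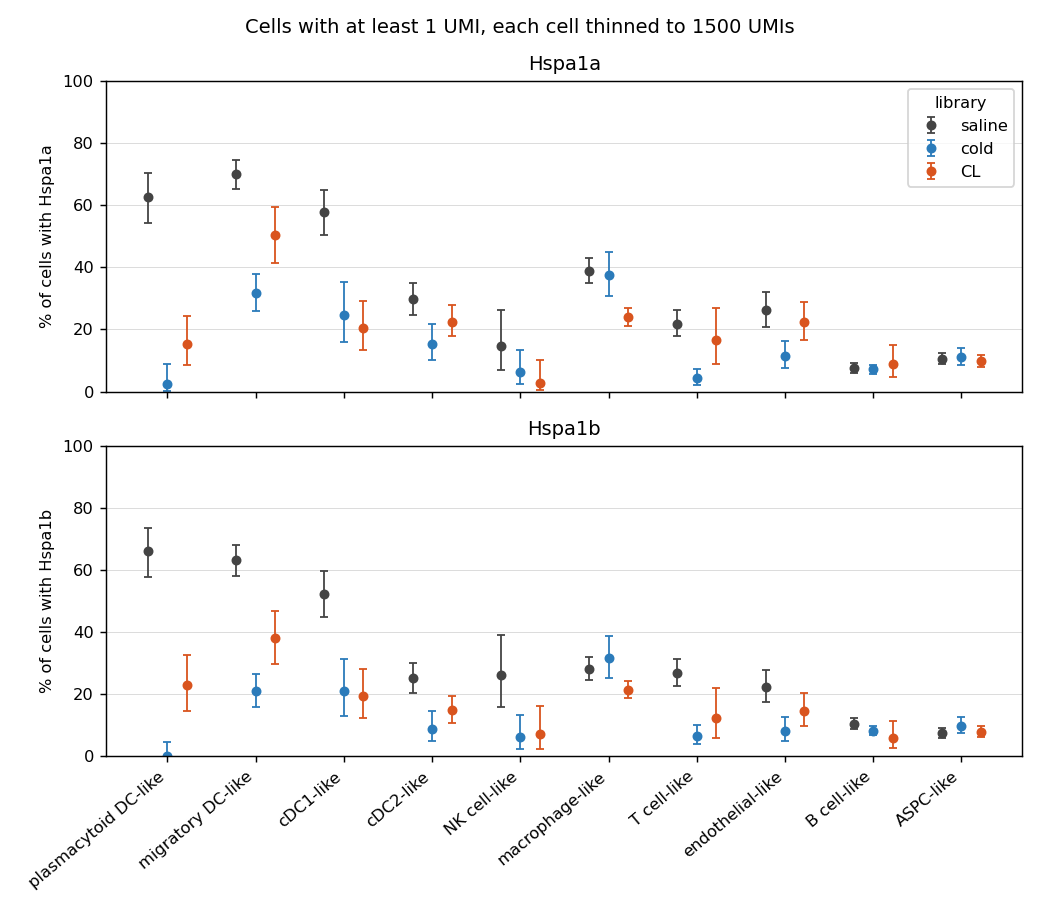
Percent of cells with at least 1 UMI of Hspa1a (top) and Hspa1b (bottom) after thinning each cell to 1500 UMIs, with exact binomial 95% intervals. The saline points of plasmacytoid DC-like, migratory DC-like and cDC1-like cells lie between 52.4% and 70.0%, above the cold and CL points of the same class, and the ASPC-like points lie together near 10%.

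The partners of HSP70 came next. Dnajb1 (ENSMUSG00000005483, chr8:83608193-83612653), the J-domain protein that brings clients to HSP70, stood at 510 CPM (455 to 570) in saline plasmacytoid DC-like cells, 98.1 (70.1 to 134) in cold and 218 (170 to 274) in CL. In endothelial-like cells it stood at 200, 90.2 and 74.5 CPM. Both classes had saline highest with no overlap. In cDC2-like cells it stood at 87.3, 97.9 and 78.2 CPM with overlapping intervals, so Dnajb1 was not called there although the HSP70 pair was.

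Hsph1 (ENSMUSG00000029657, chr5:149614287-149636376), the HSP110 nucleotide exchange factor, was called lower in cold in all 10 classes. Its log2 ratios in cold ran from -3.90 (-4.92 to -3.03) in plasmacytoid DC-like cells, where it stood at 401 CPM in saline and 27.0 in cold, to -0.81 (-1.11 to -0.50) in ASPC-like cells, at 48.0 and 27.5 CPM. NK cell-like cells had 274 CPM in saline, 35.7 in cold and 91.3 in CL. In CL the picture was less even: the ratio was -0.08 in macrophage-like cells and 0.55 (0.18 to 0.90) in B cell-like cells, where the CL level of 178 CPM lay over the 122 of saline. The count of classes with Hsph1 called in cold was 5 of the 9 that could be measured with at most 5% mitochondrial UMIs, 7 of 10 with thinned cells, 8 of 10 in the largest cluster alone, and 9 of 10 with at least 1000 genes, without cycling cells or with a 2-fold limit.

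Hsp90aa1 (ENSMUSG00000021270, chr12:110690605-110702728) was called lower in cold in 4 classes: plasmacytoid DC-like cells at -2.51, migratory DC-like cells at -0.96, endothelial-like cells at -0.89 and cDC1-like cells at -0.59. In migratory DC-like cells its level was 1266 CPM in saline, 651 in cold and 989 in CL. In endothelial-like cells CL was the lowest library, at 554 CPM, under 609 in cold and 1125 in saline. NK cell-like cells stood at 1206 CPM (1055 to 1373) in saline, 1084 (979 to 1196) in cold and 1342 (1210 to 1483) in CL. There the saline interval overlapped both others, while those of cold and CL lay apart.

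Hspa8 (ENSMUSG00000015656, chr9:40800984-40810087) encodes HSC70, the HSP70 protein that most cells make without stress. Its levels ran from 1037 CPM in saline B cell-like cells to 3721 CPM in CL cDC1-like cells, and cDC1-like cells were its highest class in all 3 libraries. It was called lower in cold in plasmacytoid DC-like cells, at 2622 CPM in saline and 1280 in cold (log2 ratio -1.03), and in endothelial-like cells, at 1974 and 1262 (-0.65). In the other 8 classes its cold ratio lay between -0.27 and 0.20. In CL no class was called, and 8 classes had a ratio above 0, up to 0.44 in cDC2-like cells.

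Hspb1 (ENSMUSG00000004951, chr5:135887919-135889563), the small heat shock protein HSP27 that also caps actin filaments, differed far more between cell classes than between libraries. Endothelial-like cells held 881 CPM (825 to 940) in saline, 924 (867 to 985) in cold and 875 (805 to 951) in CL. These intervals overlap. Mural-like cells (82, 47 and 56 cells), the pericytes and smooth muscle of vessels, held 899, 717 and 765 CPM. ASPC-like cells held 98.2, 96.9 and 147 CPM, with CL over saline at a log2 ratio of 0.58 (0.45 to 0.72), just under the limit for a call. In the other 8 classes no library passed 57.8 CPM, the value of saline plasmacytoid DC-like cells, whose cold library had 0 UMIs (up to 9.04 CPM).

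**Figure D4:**
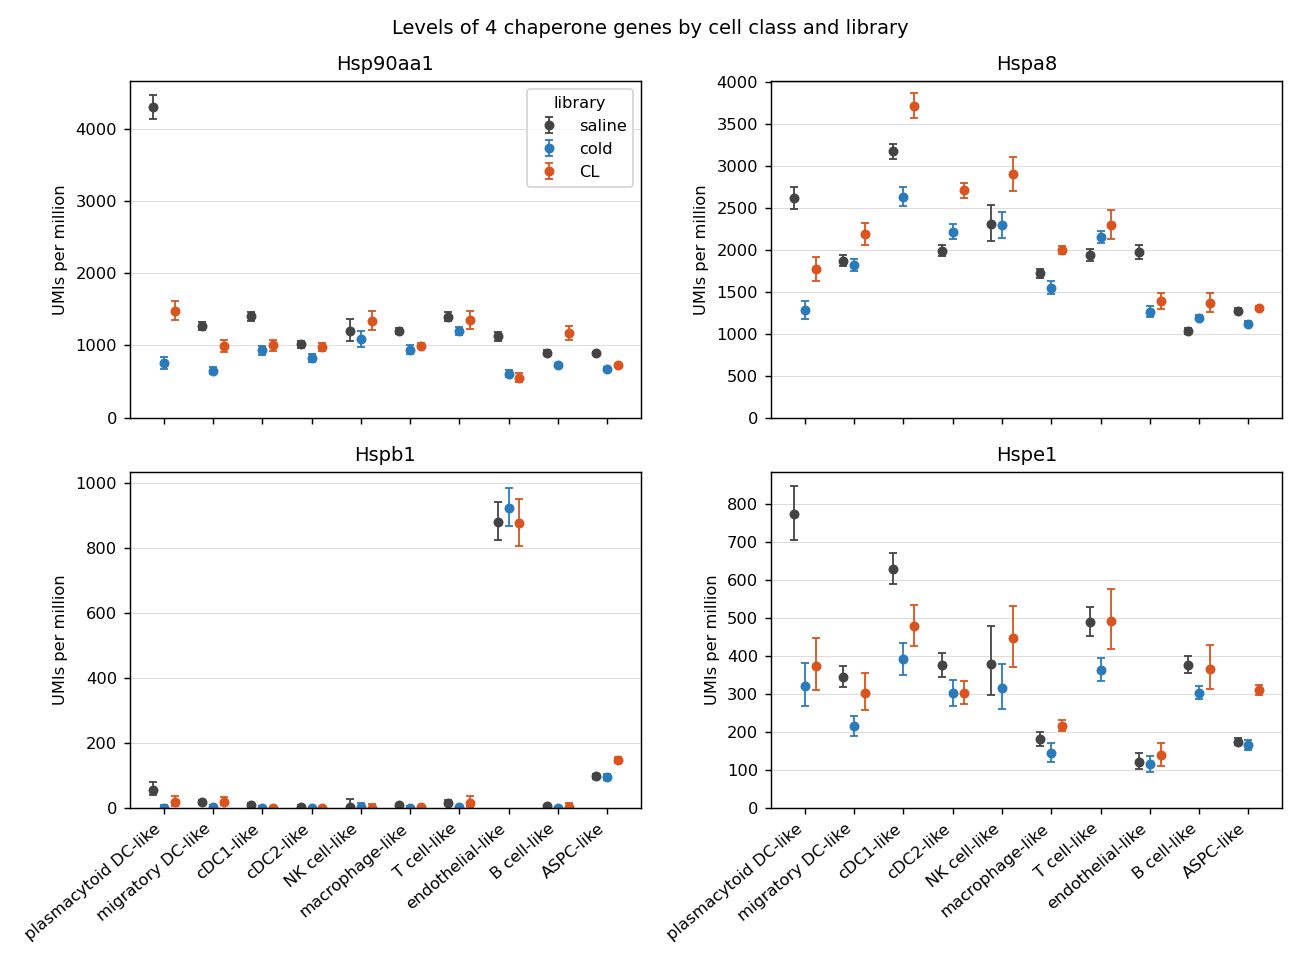
CPM of Hsp90aa1, Hspa8, Hspb1 and Hspe1 by cell class, with 1 point per library and exact Poisson 95% intervals; each panel has its own axis from 0. Hsp90aa1 has 1 high point, saline plasmacytoid DC-like cells at 4301, Hspb1 is high in endothelial-like cells of all 3 libraries, and Hspe1 in ASPC-like cells is highest in CL at 310.

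Hspd1 and Hspe1, the HSP60 and HSP10 genes that face away from each other on chromosome 1 (chr1:55077835-55088243 and chr1:55088132-55091307), also differed by class. Hspe1 stood at 773 CPM (704 to 846) in saline plasmacytoid DC-like cells, 321 (269 to 381) in cold and 375 (312 to 447) in CL, with saline apart from the others. Hspd1 in the same cells stood at 272, 115 and 187 CPM. In ASPC-like cells the order was another one: Hspe1 stood at 175 CPM (166 to 184) in saline, 166 (154 to 179) in cold and 310 (298 to 324) in CL, a log2 ratio of 0.83 (0.73 to 0.93) in CL. Hspd1 there stood at 105, 106 and 151 CPM, with a ratio of 0.53 (0.40 to 0.66) that was under the limit for a call.

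The largest cluster of ASPC-like cells was cluster 3 in saline and cold and cluster 13 in CL, where cluster 13 held 455 of the 1070 cells and had 48 saline cells. In cluster 13, which had 0 cold cells, Hspe1 stood at 222 CPM in saline and 404 in CL. In cluster 7 it stood at 172 CPM in saline, 203 in cold and 253 in CL, and in cluster 15 at 164, 150 and 267. In cluster 3 it stood at 175, 153 and 186 CPM. CL was the highest of the libraries with cells in each of the 4 clusters, by the least in cluster 3. Monocyte markers summed to 797, 747 and 1899 CPM in ASPC-like cells, and their part in the result was not tested.

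The members differed in how alike they were over 36 class and library units, each the sum of at least 50 cells, on the scale of log2(CPM + 10). Hspa1a and Hspa1b had a Pearson r of 0.95. Hsph1 had an r of 0.80 with Hsp90aa1 and 0.76 with Hspe1, and Hspd1 had 0.73 with Hspe1. Hspb1 had values between -0.57 and 0.37 with the others. The units share libraries and classes, so these are descriptions. A pattern was also made as the mean of Hspa1a, Hspa1b, Dnajb1 and Hsph1 on this scale. Apart from these genes, the 5 most like it among 9230 were Hsp90aa1 (0.70), Pcbp2 (0.63), Gm26532 (0.60), Klf2 (0.56) and Net1 (0.56). With the HSP70 genes alone, Hsp90aa1 had an r of 0.40 (Hspa1a) and 0.56 (Hspa1b).

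Other genes of protein folding were taken as lists. A list of 34 HSF1 targets and co-chaperones had a median cold ratio of -0.01 in plasmacytoid DC-like cells, where 18 could be measured, 2 were called higher and 3 lower, beside a median of 0.16 over all genes and 14.9% and 6.48% of genes called. Dnaja1, a J-domain partner of HSP70, stood at 1141 CPM in saline, 400 in cold and 571 in CL. Cacybp stood at 170 CPM in saline and 58.8 in cold, at a log2 ratio of -1.53, and Dnajb6, a J-domain protein that holds back aggregates, was higher in cold, at 287 against 130 CPM (1.14).

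In endothelial-like cells 3 of 27 genes of the same list were called higher in cold and 3 lower, where 6.88% and 10.5% of all genes were. In CL 6 of 26 were called lower and none higher, where 12.2% and 7.99% of genes were. Ubb, a ubiquitin gene, was higher in cold in B cell-like cells, at 1143 against 504 CPM, and in T cell-like cells, at 1379 against 707. Bag3, the co-chaperone of selective autophagy, stood at 233 CPM in saline ASPC-like cells and 128 in CL. Hmox1, the haem oxygenase, stood at 218 CPM in saline ASPC-like cells and 119 in cold.

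The cytosolic chaperonin CCT, which folds actin and tubulin, had 7 measured subunits. None was called in cold in 9 classes, and 1 was called higher in NK cell-like cells (Cct2), where 5.65% of genes were. In CL all 7 were called higher in macrophage-like cells, where 21.5% of genes were, with a median log2 ratio of 0.72 beside 0.14 for all genes tested. The clusters of these cells differ as given above. Cct3 stood there at 144 CPM in CL and 77.7 in saline, and Cct8 at 204 and 111. Of the mitochondrial list, 8 genes that import or fold proteins, 1 was called higher in CL ASPC-like cells, where 11.7% of genes were. It was Grpel1, the exchange factor of mitochondrial HSP70, at 68.1 against 39.9 CPM.

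The last list holds 14 chaperones of the endoplasmic reticulum, which fold secreted and membrane proteins. In CL ASPC-like cells 10 of 14 were called higher and 1 lower, where 11.7% and 6.09% of genes were, with a median of 0.74 beside 0.07 over all genes tested. Pdia6, a disulfide isomerase, stood there at 488 CPM against 231 in saline, and Sdf2l1 at 45.5 against 19.8. In B cell-like cells 7 of 13 were called higher in CL, where 3.62% of genes were, with Manf at 153 against 66.6 CPM. In cDC1-like cells 6 of 14 were called higher in CL, where 11.6% of genes were, and 4 of 14 in cold, where 8.35% were. In CL macrophage-like cells 2 of 14 were called higher and 2 lower, where 21.5% and 13.7% of genes were. In CL plasmacytoid DC-like cells none of 10 was called, where 11.3% of genes were called higher and 5.94% lower. In cold cDC2-like cells 1 of 14 was called lower and none higher, where 5.45% and 4.61% of genes were. Endothelial-like cells had 1 of 11 called higher and 2 lower in cold, where 6.88% and 10.5% of genes were. In CL they had 1 of 10 higher and 2 lower, where 7.99% and 12.2% were. Hspa5, the reticulum's HSP70, was called lower in both comparisons of these cells, at 935 CPM in saline, 581 in cold and 508 in CL.

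The immediate early genes were highest in saline in several classes. In endothelial-like cells 11 of 15 were called lower in cold and 14 of 15 in CL, where 10.5% and 12.2% of all genes were, with medians of -0.83 and -1.06. Atf3, a stress-induced transcription factor, stood there at 707, 127 and 90.0 CPM. In plasmacytoid DC-like cells 10 of 14 were called lower in cold and 12 of 14 in CL, where 6.48% and 5.94% of genes were. In T cell-like cells the median was -0.21 in cold and 0.16 in CL, although the HSP70 pair was lower in both. In ASPC-like cells 3 of 15 were called lower in cold and 5 of 15 in CL, where 3.91% and 6.09% of genes were and the pair was not called.

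**Figure D5:**
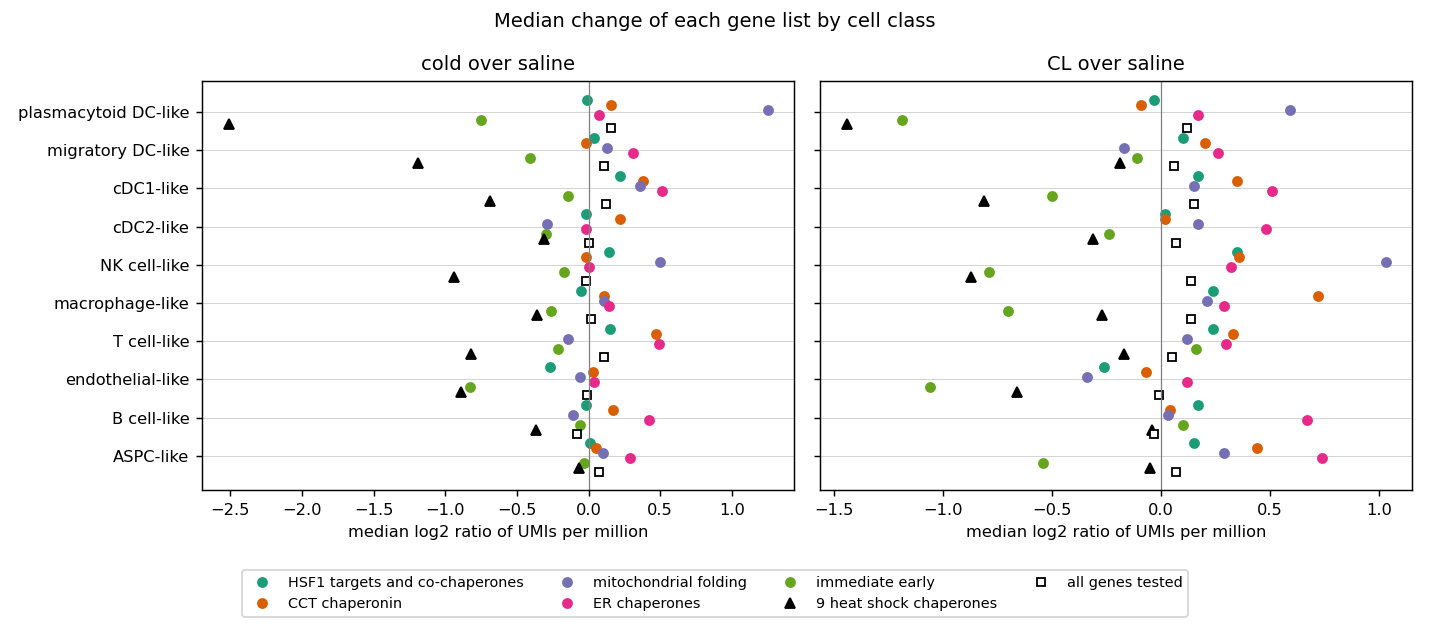
Median log2 ratio to saline of each gene list in 10 cell classes, cold on the left and CL on the right. Triangles mark the 9 heat shock chaperones, also where Hspb1 had under 50 UMIs. Open squares mark all genes tested, which had at least 50. The mitochondrial list had 2 or fewer measured genes in plasmacytoid DC-like and NK cell-like cells, and 2 in migratory DC-like cells in CL. The triangles lie left of the squares in both panels, farthest in plasmacytoid DC-like cells at -2.51 and -1.44. In CL B cell-like cells they nearly meet, at -0.04 and -0.03. There 4 members lay above 0 and 5 below, among the latter Hspb1, at -0.73 on 2 CL and 24 saline UMIs. The side of that triangle thus hangs on Hspb1. The endoplasmic reticulum list in CL lies right of the squares in all 10 classes.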

How the data were processed

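Single-cell libraries of inguinal fat stromal vascular cells were read from 3 deposited matrices, 1 per treatment. The authors deposited raw UMI counts per gene and barcode, made with Cell Ranger 3.0.2 per the file headers, and the genome build was mm10 per the submitters' processing notes. The aligner settings, the gene annotation, the cell calling and the treatment of reads that fit 2 genes are not stated in the labels, headers or notes used here.

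From these counts, barcodes with under 500 detected genes or over 15% mitochondrial UMIs were left out. Scrublet, as in scanpy 1.11.5, marked doublets library by library. The automatic limits removed 86 saline, 4 cold and 64 CL barcodes, so doublets may remain in the cold library. Cells were clustered with Leiden at resolution 1 on 2000 variable genes, 30 principal components and 15 neighbours. The 9 chaperone genes and 15 immediate early genes were kept out of the variable genes. Clusters were named from fixed marker lists, each needing 3 detected markers. Free RNA was not subtracted.

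For every class and library the UMIs of its cells were added up and given per 1000000 (CPM), with exact Poisson 95% intervals. Ratios carry exact conditional binomial intervals. All intervals cover counting error only. With 1 library per treatment no test across animals was possible, so no p-value is given. A gene was called higher or lower at 1.5-fold or more with an interval that left out 0, among genes with at least 50 UMIs in both libraries together.

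The members and all lists were chosen with earlier results of these data known. Other genes named are the 3 with the largest ratio per list and class, where the library with more had 50 or more UMIs. Also named are the 5 with the pattern most like the mean of Hspa1a, Hspa1b, Dnajb1 and Hsph1. Of the 28692 gene IDs, 28339 matched GENCODE M21. Promoter sequences came from RefSeq (GRCm38.p6). Alternatives were a mitochondrial limit of 5% or 10%, at least 1000 genes, doublets kept, the members and immediate early genes used in clustering, the largest cluster alone, means over cells, ratios less the median, thinning to 1500 UMIs, shared barcodes or cycling cells left out, a 2-fold limit, and totals without mitochondrial and ribosomal genes. The 10% limit and the last were added after seeing the data.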

Additional observations from a re-analysis of the deposited data

How the results depend on the processing

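The log2 ratio of the summed Hspa1a and Hspa1b over saline kept its sign under every alternative that could be run, except in ASPC-like cells (both comparisons) and macrophage-like cells (cold). With at most 5% mitochondrial UMIs too few plasmacytoid DC-like cells (16 saline, 8 cold) and CL B cell-like cells (14) were left for a value. The cause of each shift below was not tested.

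With at most 5% mitochondrial UMIs the cold ratio of the pair was -2.81 in B cell-like, -3.40 in T cell-like, -1.80 in cDC2-like, -1.68 in migratory DC-like, -1.58 in cDC1-like and -0.21 in NK cell-like cells, and the CL ratio was -0.67 in T cell-like, -0.06 in endothelial-like and -2.67 in NK cell-like cells. There 3 members were lower in cold macrophage-like cells, 0 lower and 1 higher in cold NK cell-like cells, 0 lower and 2 higher in CL NK cell-like cells, 2 lower in CL endothelial-like cells and 2 higher in CL ASPC-like cells. Signs turned for Hspa1a in NK cell-like cells in cold (0.31) and in T cell-like cells in CL (0.02), for Hspa1b in endothelial-like cells in CL (0.04) and for Hsph1 in T cell-like cells in CL over cold (-0.03). Within the largest cluster, Hspb1 in ASPC-like cells turned to -0.28 in CL over cold.

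With at least 1000 genes the pair's cold ratio was -0.59 in B cell-like and -2.50 in T cell-like cells, and its CL ratio -0.73 in B cell-like, -2.24 in T cell-like, -0.45 in endothelial-like and -1.16 in migratory DC-like cells. Counts were 2 lower in cold macrophage-like, 1 lower in CL B cell-like and 2 higher in CL ASPC-like cells. A limit of 10% mitochondrial UMIs gave 2 lower in cold macrophage-like and 2 higher in CL ASPC-like cells, and totals without mitochondrial and ribosomal genes 2 higher in the latter. With 2-fold for a call, 0 were lower in cold ASPC-like, 3 in cold cDC1-like, 1 in CL B cell-like, 1 in CL macrophage-like, 3 in CL endothelial-like and 3 in CL cDC1-like cells, and 0 higher in CL ASPC-like cells.

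Thinned to 1500 UMIs, the pair's cold ratio was -0.69 in B cell-like, 0.11 in macrophage-like, -2.62 in T cell-like and -1.60 in endothelial-like cells, and its CL ratio -1.61, -0.92, -1.37 and -0.46 in the same classes, -1.19 in cDC2-like and -0.80 in migratory DC-like cells. Counts lower were 1 in cold ASPC-like, 0 in cold macrophage-like, 1 in cold NK cell-like, 3 in CL endothelial-like and 1 in CL NK cell-like cells, and 1 was higher in CL B cell-like and in CL macrophage-like cells. Without cycling cells, 2 were lower in cold macrophage-like and 7 in cold T cell-like cells, 1 was higher in CL B cell-like and 2 in CL ASPC-like cells, and the pair's ratio was -1.22 in cold cDC2-like, -1.13 in CL T cell-like and -2.22 in CL cDC1-like cells.

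With doublets kept, the ASPC-like ratio was -0.26 in cold and -0.42 in CL, with 2 members higher in CL. In the largest cluster alone the cold ratio was -1.09 in B cell-like, 0.21 in ASPC-like and -2.28 in endothelial-like cells, and the CL ratio 0.26 in ASPC-like, -0.48 in macrophage-like and -1.35 in T cell-like cells. There 1 was lower in cold ASPC-like, 7 in cold T cell-like, 1 in CL ASPC-like and 0 in CL macrophage-like cells, and 1 was higher in CL B cell-like and in CL endothelial-like cells. As means over cells the cold ratio was -2.58 in T cell-like, -1.67 in endothelial-like and -0.95 in cDC2-like cells, the CL ratio -1.12 in cDC2-like and -0.82 in migratory DC-like cells, and 1 member was higher in CL B cell-like cells. With the members and immediate early genes used in clustering the cDC2-like ratio was -1.21 in cold and -1.19 in CL. Less the median of all genes, the ratio was -1.89 in cold migratory DC-like, -1.27 in CL macrophage-like and -2.09 in CL cDC1-like cells. Leaving out shared barcodes left all 354 values within their interval or count range. Leaving out each replicate was not run, since each treatment has 1 library. No paired analysis was possible because each group has 1 library and no test was made.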
